A study of Mus musculus with 4 samples.

Results

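The genes of insulin and insulin-like growth factor (IGF) signalling were followed in RNA of mouse pancreatic islets, which hold the endocrine cells that release insulin and glucagon. The 35 genes were taken by symbol from a count table of 55536 genes. They are 6 ligands related to insulin, 3 receptors, 7 IGF-binding proteins, 3 adaptors, 4 subunits of phosphoinositide 3-kinase (PI3K), 5 kinases around AKT, 6 genes of the TSC and mTOR arm, and the insulin-degrading protease gene Ide. The islets came from male C57BL/6 mice aged 8 weeks, and polyadenylated RNA was sequenced in 2 insulin-depleted and 2 non-depleted libraries. The depletion panel of Jumpcode Genomics acted on insulin sequences while the libraries were made, so the groups differ in library preparation and not in any treatment of the mice that the labels give. The labels call the libraries of a group biological replicates, but all 4 column headers carry the same codes and do not show separate animals, so a p-value here speaks only of how far these 4 libraries scatter, which may be technical. A size-selection tag stands in the headers of the non-depleted libraries alone, and such a difference cannot be told apart from depletion.

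Insulin and IGF1 bind receptor tyrosine kinases, which phosphorylate insulin receptor substrate proteins. These recruit PI3K, whose lipid product brings AKT to the membrane to be activated by the kinase PDPK1. AKT then inhibits GSK3, and it inhibits the TSC complex, which otherwise holds back the growth kinase mTOR. In beta cells, which make insulin, the same pathway takes part in growth and survival.

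Library totals were 19316173 and 65030111 counts in insulin-depleted replicates 1 and 2, and 50605417 and 60528485 counts in non-depleted replicates 1 and 2. Ins1 and Ins2 took 0.195 and 0.264% of counts in the insulin-depleted libraries, against 4.14 and 3.97% in the non-depleted ones. Levels below are CPM, the usual depth-scaled counts, taken of each library's total without Ins1 and Ins2. Between genes they are compared as CPM per kilobase of merged exons. The islet label was checked against markers: those of beta cells summed to between 18527 and 19812 CPM in the 4 libraries, those of alpha cells to between 11479.8 and 13219 CPM, and those of liver to between 0.172 and 1.14 CPM. Markers of acinar cells, the digestive cells around islets, were 11534 and 4864 CPM in insulin-depleted replicates 1 and 2, against 11512 and 4833 CPM in the non-depleted replicates of those numbers. Acinar RNA thus followed the replicate number and not the group. In bulk RNA, fewer cells of a type and less RNA per cell cannot be told apart, here or for any gene below.

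The 6 listed relatives of insulin were nearly silent beside insulin, and Igf2, which encodes another IGF, is not among them. The 6 ligands together gave 5.71 and 4.96 CPM in the insulin-depleted libraries, and 6.00 and 4.37 CPM in the non-depleted ones. Because depletion acts on sequence, the coding sequences of the relatives were set against Ins2. Ins1 and Ins2 share an identical coding stretch of 54 bases. The longest identical coding stretch between any of the 35 genes and Ins1 or Ins2, on either strand, was 15 bases (in Pik3r2), and the median was 11 bases, the same as over 14936 other tested genes. Within coding sequences, 0 of these genes shared 20 bases or more with Ins1 or Ins2. Over whole annotated transcripts, untranslated ends included, the longest shared stretch was 24 bases in Pdpk1 and 21 bases each in Irs1 and Gsk3b. It stayed under 20 bases in the rest of the 35 genes. Whole transcripts of other tested genes were not compared. The log2 fold changes of insulin-depleted over non-depleted libraries were -0.005 in Pdpk1, -0.0224 in Irs1 and 0.0036 in Gsk3b. The 20-base window closest to Ins2 on the coding strand is shown for the ligands with the fewest mismatches. Sequences are from GENCODE M21 transcripts of GRCm38, 5′ to 3′, and capitals mark bases that match the other sequence of the couple.
Igf1, coding bases 268 to 287: GGCATTGTgGATgAGTGtTG
Ins2, coding bases 268 to 287: GGCATTGTaGATcAGTGcTG
Insl6, coding bases 496 to 515: GGCtTTGcAGATaAGTGCTG
Ins2, coding bases 268 to 287: GGCaTTGtAGATcAGTGCTG
Insl3, coding bases 159 to 178: tGTGGAGaCCCGGGAcCgGG
Ins2, coding bases 205 to 224: gGTGGAGgCCCGGGAgCaGG
Igf1 and Insl6 each had 3 mismatches, and both met Ins2 in the same window, which encodes the start of the insulin A chain. Insl3 had 4 mismatches, Insl5 and Rln3 had 5, and Rln1 had 6. The genes of the other roles had 4 or 5 mismatches, in coding sequences that were all longer than those of the ligands. The labels do not give the sequences that the panel targets.

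Igf1, which encodes the growth factor IGF1 (chr10:87858265-87937042, plus strand, GRCm38), was the ligand with the most counts. It had 4.67 and 4.06 CPM in insulin-depleted libraries and 4.91 and 3.30 CPM in non-depleted ones, so that the groups overlapped. Its log2 fold change was 0.08, with a 95% interval from -0.60 to 0.76. Per kilobase of merged exons, Igf1 lay below Insl3 and Insl6, with means over the 4 libraries of 0.427, 1.05 and 0.517 CPM. By the longest transcript, Igf1 had 0.600 CPM per kilobase and lay above Insl6.

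Insl6, a relaxin-like peptide gene known from testis (chr19:29321344-29325356, minus strand), had 0.104 and 0.370 CPM in insulin-depleted libraries, against 0.474 and 0.516 CPM in non-depleted ones. These values rest on 2 and 24 counts, against 23 and 30 counts. The groups of Insl6 did not overlap. The exact Poisson 95% interval of the lowest library, 0.0126 to 0.375 CPM, overlapped that of non-depleted replicate 1, 0.301 to 0.711 CPM. An overlap of such intervals is not a test of a difference. Such intervals cover counting error only, and they are too narrow if a read pair adds 2 counts: 80.0 to 84.0% of genes with 2 to 9 counts in a library had an even count. The log2 fold change of -0.88, the lowest of the tested genes, had an interval from -2.45 to 0.69, and the edgeR quasi-likelihood test gave an adjusted p of 1.0. It was -0.43 without insulin-depleted replicate 1 and -2.22 without insulin-depleted replicate 2, so single libraries set its size.

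Insl3, a Leydig-cell hormone in the testis, had 0.934 and 0.509 CPM in insulin-depleted and 0.618 and 0.551 CPM in non-depleted libraries, and the groups overlapped. Of its exon length, 64.8% lies within exons of Jak3 on the same strand, so these counts cannot be assigned to Insl3 with certainty. Insl5, a gut hormone gene, had 2 counts in insulin-depleted replicate 2 and 0 in every other library. Rln1 and Rln3, which encode relaxin peptides, had 0 counts in all 4 libraries. At 0 counts, a one-sided limit of 3 counts was used, which is 0.156 and 0.0463 CPM in insulin-depleted replicates 1 and 2, and 0.0618 and 0.0516 CPM in non-depleted replicates 1 and 2. If a read pair adds 2 counts, these limits are too low.

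The receptors were expressed in the order Igf1r, Insrr, Insr. Igf1r, the receptor for IGF1 (chr7:67952827-68233668, plus strand), had 29.1 and 28.9 CPM per kilobase in insulin-depleted libraries and 29.2 and 28.4 in non-depleted ones. Insr, the insulin receptor (chr8:3122061-3279617, minus strand), had 10.2 and 9.72 CPM per kilobase in insulin-depleted and 9.98 and 9.48 in non-depleted libraries. Igf1r therefore exceeded Insr in every library, by a ratio per kilobase of 2.92 ± 0.0750 in insulin-depleted and 2.96 ± 0.0524 in non-depleted libraries (SD, n = 2 each).

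Insrr encodes the insulin receptor-related receptor, known in kidney as an alkali sensor. It had 80.3 and 119.6 CPM in insulin-depleted replicates 1 and 2, and 81.2 and 119.5 CPM in non-depleted replicates 1 and 2. Both libraries numbered 2 were high and both numbered 1 were low, in either group alike. Insrr exceeded Insr per kilobase in all 4 libraries, by ratios of 1.38 and 2.15 in the insulin-depleted and 1.42 and 2.21 in the non-depleted libraries. Counted over the longest annotated transcript, the ratio was 1.05 in insulin-depleted replicate 1 and 1.08 in non-depleted replicate 1, so Insrr stayed above Insr there by a narrow margin.

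**Figure D1:**
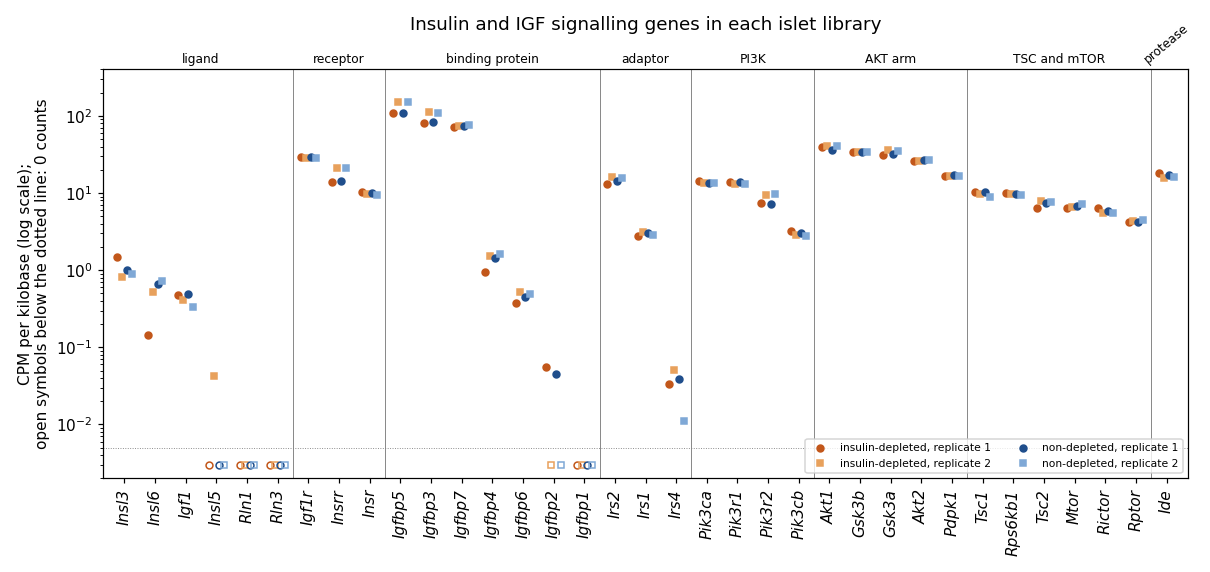
Levels of the 35 genes in each library, as CPM per kilobase of merged exons on a log scale, by role and from high to low within a role. Points are single libraries, and open symbols stand for 0 counts. Igfbp5, Igfbp3 and Igfbp7 lead at 72.6 to 150 CPM per kilobase, while Rln1, Rln3 and Igfbp1 had 0 counts in all 4 libraries.

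The IGF-binding proteins, secreted carriers that hold IGFs in blood and tissue, held both the highest and some of the lowest levels. Igfbp5 led all 35 genes in each of the 4 libraries, with 110.4 and 149 CPM per kilobase in insulin-depleted and 109.6 and 150.4 in non-depleted libraries. Igfbp3, which encodes the main IGF carrier of blood plasma, ranked second in every library, with 81.1 and 110.7 CPM per kilobase in insulin-depleted and 82.8 and 107.5 in non-depleted libraries. Its distance from Igfbp5 rests on length: the ratio of Igfbp5 to Igfbp3 was 1.36 ± 0.00819 in insulin-depleted libraries and 1.36 ± 0.0542 in non-depleted libraries by merged exons. By the longest transcript it was 1.05 ± 0.00633 in insulin-depleted and 1.05 ± 0.0419 in non-depleted libraries (SD, n = 2 each).

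Igfbp7, a binding protein with low affinity for IGFs, ranked next in every library. It had 87.8 and 88.3 CPM in insulin-depleted and 90.3 and 92.6 CPM in non-depleted libraries, and the groups did not overlap. The difference was small, with a log2 fold change of -0.06 and an interval from -0.24 to 0.13. Together Igfbp5, Igfbp3 and Igfbp7 held nearly all of the binding-protein RNA, and Igfbp5 alone held 43.1% ± 2.12 of its level per kilobase in insulin-depleted and 42.7% ± 2.80 in non-depleted libraries (SD, n = 2 each).

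The other binding proteins were far lower. Igfbp4 had 4.15 and 6.83 CPM in insulin-depleted and 6.33 and 7.11 CPM in non-depleted libraries, which overlapped. Igfbp6 had between 0.415 and 0.586 CPM in the 4 libraries. Igfbp2 had 2 and 0 counts in insulin-depleted libraries and 4 and 0 in non-depleted ones, all in libraries numbered 1. Igfbp1, an insulin-repressed gene of liver, had 0 counts in every library.

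The silent binding-protein genes lie beside the abundant ones in the genome. Igfbp2 (chr1:72824503-72852474, plus strand) and Igfbp5 (chr1:72857932-72874884, minus strand) point towards each other with 5457 bases between them, and their mean levels over the 4 libraries were 0.0252 and 130.0 CPM per kilobase. Igfbp1 (chr11:7197782-7202546, plus strand) and Igfbp3 (chr11:7206086-7213923, minus strand) also converge, 3539 bases apart, with 0 and 95.5 CPM per kilobase. Insl6 and Rln1 are a further adjacent couple, 5813 bases apart on chromosome 19 and on the same strand, and both were low.

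Promoters of the first couple are shown because these neighbours hold the highest and one of the lowest levels of all 35 genes. The sequences, 250 bases before to 50 after the start, are RefSeq's for GRCm38.p6, 5′ to 3′ on the strand of the gene, and capitals mark CG dinucleotides.
Igfbp2, chr1:72824230-72824529, plus strand: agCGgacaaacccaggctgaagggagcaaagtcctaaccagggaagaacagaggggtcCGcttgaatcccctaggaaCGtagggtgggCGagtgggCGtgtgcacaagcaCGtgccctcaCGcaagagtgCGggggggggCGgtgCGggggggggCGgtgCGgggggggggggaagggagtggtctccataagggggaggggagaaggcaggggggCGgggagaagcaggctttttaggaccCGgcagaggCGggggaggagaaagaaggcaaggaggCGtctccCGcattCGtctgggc
Igfbp5, chr1:72874816-72875115, minus strand: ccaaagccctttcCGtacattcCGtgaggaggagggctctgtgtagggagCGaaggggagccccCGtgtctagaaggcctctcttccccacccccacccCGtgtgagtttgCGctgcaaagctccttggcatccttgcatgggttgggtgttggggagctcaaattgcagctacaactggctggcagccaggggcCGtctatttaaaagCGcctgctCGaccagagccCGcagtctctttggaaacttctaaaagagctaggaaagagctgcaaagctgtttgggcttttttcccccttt
The nearly silent Igfbp2 had 18 CG dinucleotides and the abundant Igfbp5 had 10. The other convergent couple went the opposite way, with 8 in Igfbp1, which had 0 counts, and 37 in the abundant Igfbp3. Over the 32 genes with an entry, a median of 21 CG (0 to 48) was found in the 24 that reached 1 CPM on average, and a median of 8 (4 to 19) in the 8 that did not. The RefSeq starts of Ide, with 0 CG, and Igf1, with 6, lay 3308 and 2846 bases from their gene starts in GENCODE. The median over 27025 genes with a promoter in the same table was 7. That median used the first entry of each gene, whereas the listed genes used the entry nearest the gene start. These counts describe the windows and say nothing of binding or methylation.

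Among adaptors, which dock on the activated receptors, Irs2 was the main gene. Irs2 (chr8:10984681-11008458, minus strand), the substrate tied to beta-cell mass in mice, had 84.0 and 101.1 CPM in insulin-depleted and 89.7 and 99.7 CPM in non-depleted libraries, so the groups overlapped. Irs1 had 25.3 and 28.3 CPM in insulin-depleted and 28.1 and 26.3 CPM in non-depleted libraries. Irs2 exceeded Irs1 by a ratio per kilobase of 4.99 ± 0.252 in insulin-depleted and 5.05 ± 0.619 in non-depleted libraries (SD, n = 2 each). Exons of Gm9747 on the other strand cover 30.9% of the Irs1 exon length, and the strand setting of the counting is not given in the sources used here.

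Irs4, an adaptor gene on the X chromosome, had 4 and 21 counts in insulin-depleted and 12 and 4 counts in non-depleted libraries. In CPM these were 0.207 and 0.324, against 0.247 and 0.0688. Its log2 fold change of 0.82, the highest of the tested genes, had an interval from -1.25 to 2.89 and overlapping groups. It was 1.97 without non-depleted replicate 1 and 0.14 without non-depleted replicate 2.

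PI3K makes the lipid signal from a catalytic and a regulatory subunit. Of the catalytic subunits, Pik3ca had 14.1 and 13.5 CPM per kilobase in insulin-depleted and 13.7 and 13.4 in non-depleted libraries. Pik3cb had 3.18 and 2.89 in insulin-depleted and 3.05 and 2.74 in non-depleted libraries on the same scale. Pik3ca thus exceeded Pik3cb by a ratio per kilobase of 4.57 ± 0.174 in insulin-depleted and 4.69 ± 0.301 in non-depleted libraries (SD, n = 2 each).

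The regulatory subunit gene Pik3r1 had 14.0 and 13.0 CPM per kilobase in insulin-depleted and 14.1 and 13.1 in non-depleted libraries. It lay above Pik3ca in non-depleted replicate 1 and below it in the other libraries. By the longest transcript, Pik3r1 lay above Pik3ca in all 4 libraries, with 19.9 against 14.4 CPM per kilobase in insulin-depleted replicate 1, so their order rests on the length used. Pik3r2 had 7.45 and 9.40 CPM per kilobase in insulin-depleted and 7.14 and 9.83 in non-depleted libraries, higher in both libraries numbered 2.

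Akt1, Gsk3b, Gsk3a and Akt2 were the 4 highest genes of the list that encode intracellular proteins. Akt1 had 39.2 and 40.8 CPM per kilobase in insulin-depleted and 36.5 and 40.5 in non-depleted libraries, and it ranked just after the 3 binding proteins in all 4 libraries. Akt2, the isoform tied to glucose homeostasis in mice, had 25.9 and 26.2 CPM per kilobase in insulin-depleted and 26.5 and 26.5 in non-depleted libraries. Its groups did not overlap, with a log2 fold change of -0.03 and an interval from -0.21 to 0.15.

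Gsk3b, a kinase that AKT inhibits, had 34.5 and 33.5 CPM per kilobase in insulin-depleted and 33.7 and 34.0 in non-depleted libraries. Its close relative Gsk3a had 31.1 and 35.8 in insulin-depleted and 32.4 and 35.2 in non-depleted libraries, so these genes changed places between libraries and cannot be ranked. Exons of 9130221H12Rik on the other strand cover 28.3% of the Gsk3a exon length. Pdpk1, which activates AKT, had between 16.4 and 17.2 CPM per kilobase, in the 4 libraries.

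Ide, the protease that degrades insulin, had 135 and 117 CPM in insulin-depleted and 129.6 and 121 CPM in non-depleted libraries, and the groups overlapped. Per kilobase it lay between 15.6 and 18.0, a range that includes that of Pdpk1.

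Genes of the TSC and mTOR arm, which joins AKT to cell growth, lay between 4.18 and 10.4 CPM per kilobase of merged exons. By the longest transcript the means over the 4 libraries were higher, at 8.78 against 4.30 for Rptor, 10.6 against 5.84 for Rictor and 15.1 against 9.85 for Tsc1, and Rptor then lay above Mtor, at 7.95. Tsc1 and Rps6kb1, a ribosomal S6 kinase gene, were the highest. Tsc1 had 10.3 and 9.76 in insulin-depleted and 10.4 and 9.00 in non-depleted libraries, and Rps6kb1 had 10.02 and 9.75 in insulin-depleted and 9.84 and 9.47 in non-depleted libraries. Their ranges overlapped each other and that of Insr.

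Tsc2, the partner of Tsc1, had 60.9 and 74.8 CPM in insulin-depleted and 71.3 and 74.5 CPM in non-depleted libraries. Mtor, the kinase itself, had 65.6 and 66.6 CPM in insulin-depleted and 68.2 and 72.0 CPM in non-depleted libraries. The groups of Mtor did not overlap, and its log2 fold change was -0.09 with an interval from -0.28 to 0.11. Rictor and Rptor, which define the complexes mTORC2 and mTORC1, had 5.52 to 6.42 and 4.18 to 4.41 CPM per kilobase over the 4 libraries, with Rictor above Rptor in each.

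The comparison of the groups asked whether removing insulin reads altered the signalling genes. In the edgeR quasi-likelihood test over 19723 genes, Ins1 and Ins2 were called, which is 0.0101% of genes. The log2 fold changes were -6.52 for Ins1 (SE 0.19, adjusted p = 0.00236) and -3.87 for Ins2 (SE 0.17, adjusted p = 0.0114). Of the 35 signalling genes, 30 passed the filter on low counts, and 0 were called higher and 0 lower (edgeR, lowest adjusted p = 1.0). DESeq2 and limma-voom called 0 of them too. An unadjusted edgeR p under 0.05 was reached by 0 of them, and by only 82 of all 19723 genes. Few genes of any kind passed that line, so the 0 does not set the signalling genes apart. The 5 genes not tested were Insl5, Rln1, Rln3, Igfbp1 and Igfbp2.

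Of the 30 tested genes, 14 lay above 0 on the log2 fold change scale and 16 lay below. Their median was -0.0024, beside -0.0025 over all genes tested. The log2 fold changes of the 24 genes that averaged 20 CPM or more lay between -0.11 (Tsc2) and 0.06 (Rictor and Pik3cb). For 23 of these 24, the 95% interval excluded a 1.5-fold difference in either direction. The exception was Insrr, with a log2 fold change of -0.0048 and an interval from 0.658-fold to 1.51-fold. Between libraries of the same number, its insulin-depleted over non-depleted ratio was 0.990 for number 1 and 1.001 for number 2, and in a fit with replicate number as a block its interval ran from 0.944-fold to 1.05-fold. Insl3, Insl6, Igfbp6, Irs4, Igf1 and Igfbp4, the 6 tested genes at lower levels, had intervals that reached beyond 1.5-fold without the block. With the block, the interval of Igf1 ran from 0.856-fold to 1.39-fold and that of Igfbp4 from 0.678-fold to 1.01-fold. Those of Insl3, Insl6, Igfbp6 and Irs4 still reached beyond 1.5-fold, so neither fit bounds their change to within 1.5-fold. With the block, 4 libraries leave little from which to estimate the scatter of a single gene. The block intervals therefore rest largely on scatter borrowed from other genes.

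**Figure D2:**
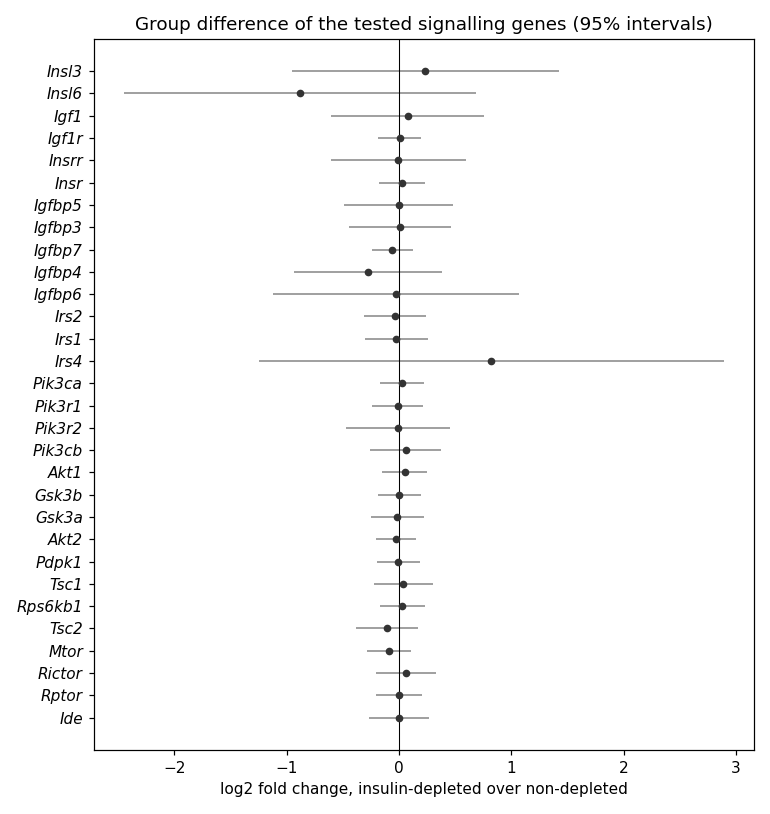
Log2 fold change of insulin-depleted over non-depleted libraries for the 30 tested genes, as edgeR estimates (points) with 95% intervals (lines), in the order of the plot of levels. All intervals include 0, and the widest belong to Irs4 and Insl6, both under 1 CPM.

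Some groups did not overlap. Both libraries of the insulin-depleted group were the lower ones for 4 of 30 genes (Insl6, Igfbp7, Akt2 and Mtor), where 9.33% of all tested genes did. They were the higher ones for 0 of 30 genes, where 10.2% of all tested genes did. Between libraries of the same number, the insulin-depleted one was higher in both couples for 5 of 30 genes (Insr, Pik3ca, Pik3cb, Akt1 and Rps6kb1), against 25.4% of all tested genes. It was lower in both couples for 6 of 30 (Insl6, Igfbp4, Igfbp7, Pik3r1, Akt2 and Mtor), against 25.5% of all tested genes.

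The difference between group means was set beside the ratio between single replicates. The median absolute log2 difference between group means over the 30 tested genes was 0.033. The median absolute log2 ratio between replicates was 0.18 in insulin-depleted and 0.11 in non-depleted libraries. For 21 of the 30 genes the group difference was smaller than the replicate ratio in both groups. A difference between means tends to be smaller than a ratio between single libraries, even where groups and replicates vary alike. Replicate differences shared by both groups also cancel out of it. The count therefore does not set these genes apart, and its share over all tested genes was not taken.

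The replicate differences had the same sign in both groups for 26 of the 30 genes. The share over all tested genes was not taken. Deviations of same-numbered libraries from their group means correlated at 0.845 over 11595 genes, so shared replicate differences were not particular to these genes. Igfbp5 had 663 and 897 CPM in insulin-depleted replicates 1 and 2, and 658 and 903 CPM in non-depleted replicates 1 and 2. Igfbp3 had 254 and 347 CPM in insulin-depleted and 259 and 336 CPM in non-depleted libraries. Igfbp5, Igfbp3, Insrr and Pik3r2 were all high in the libraries numbered 2, in which the acinar markers were low. Endothelial markers summed to 984 and 1106.5 CPM in insulin-depleted libraries, against 979 and 1099.7 CPM in non-depleted ones. Delta-cell markers summed to 609 and 738 CPM in insulin-depleted and 606 and 744 CPM in non-depleted libraries. Immune markers summed to 65.8 and 83.3 CPM in insulin-depleted and 70.3 and 84.5 CPM in non-depleted libraries. Alpha-cell markers (13105 and 11479.8 CPM in insulin-depleted, 13219 and 11660.5 CPM in non-depleted libraries) and stellate-cell and fibroblast markers (202 and 173 CPM in insulin-depleted, 195 and 172 CPM in non-depleted libraries) were lower in the libraries numbered 2. The part of these cell types in the replicate differences was not tested.

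**Figure D3:**
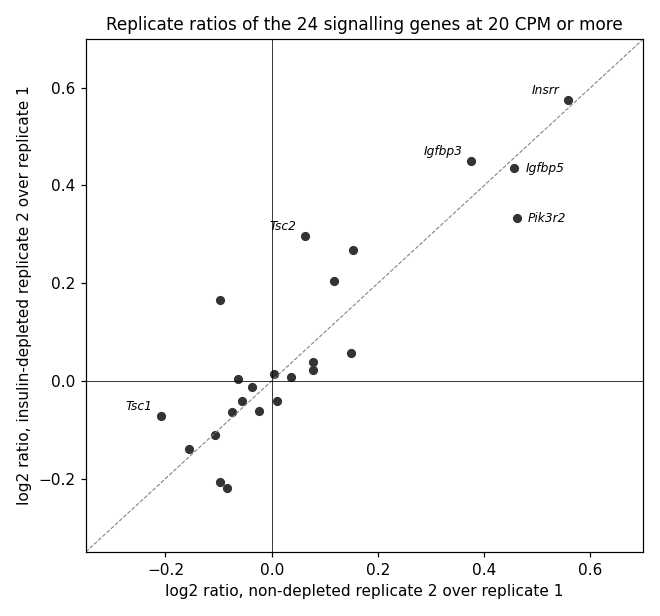
Log2 ratio of replicate 2 over replicate 1 in insulin-depleted libraries (vertical axis) against the same in non-depleted libraries (horizontal axis), for the 24 genes that averaged 20 CPM or more. Points are genes and the dashed line marks equal ratios. Insrr, Igfbp5, Igfbp3 and Pik3r2 stand apart with log2 ratios from 0.33 to 0.57 in both groups.

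The wider pathway also held 0 called genes. Of 50 other genes of insulin and IGF signalling, listed by role, 45 were tested, and 0 were called higher and 0 lower (edgeR, lowest adjusted p = 1.0, 0 at an unadjusted p under 0.05). DESeq2 and limma-voom also called 0 of them. Over all 19723 genes, 82 had an unadjusted edgeR p under 0.05, so these values do not set the wider pathway apart. Above 0 were 25 log2 fold changes and below 0 were 20, with a median of 0.0076.

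The highest of these genes in CPM was Ptprf, a receptor tyrosine phosphatase, with 603 and 648 CPM in insulin-depleted and 596 and 638 CPM in non-depleted libraries. Rps6, the ribosomal protein that S6 kinase phosphorylates, had 507 and 379 CPM in insulin-depleted and 517 and 387 CPM in non-depleted libraries. Shc1, an adaptor of receptor tyrosine kinases, had 372 and 483 CPM in insulin-depleted and 380.2 and 478 CPM in non-depleted libraries. Their groups overlapped, and Rps6 was high in libraries numbered 1 while Shc1 was high in those numbered 2. Per kilobase of merged exons the order differed, with means over the 4 libraries of 282 CPM for Rps6, 75.9 for Shc1 and 67.9 for Ptprf.

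The receptors of relaxin peptides, Rxfp1, Rxfp2, Rxfp3 and Rxfp4, all failed the filter on low counts, with at most 8 counts in a library.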

How the data were processed

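The authors deposited 1 table of whole-number counts per gene for 4 libraries, with no normalization. For the non-depleted libraries the unit was entered under the name expected count, since a word in the deposited headers resembles a library size. These columns hold whole numbers and were used unchanged. Per the submitters' processing notes, cutadapt 4.8, STAR 2.7.11b and GRCm38 (mm10) were used, with no step assigned to each. How reads were assigned to genes, and whether by strand, is not given in the sources used here. All 55536 identifiers matched GENCODE M21, which gave coordinates, exon lengths and coding sequences.

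Counts of all genes were fitted with edgeR 4.0.16 in R 4.3.3 (filterByExpr, TMM, estimateDisp, robust glmQLFit and glmQLFTest on group alone), with Benjamini-Hochberg adjustment over 19723 genes, a threshold of 0.05 and 95% intervals from the standard error. The common dispersion was 0.0291. The fit was tested on simulated data. Alternatives were RLE scaling, totals without Ins1 and Ins2, DESeq2 1.42.0, limma-voom (limma 3.58.1), other filters, a replicate block, counts divided by 2, leaving out each library, and another gene length. Named genes were, in each role, those highest per kilobase (up to 4), all ligands, the largest fold change in either direction and, of the wider pathway, the 3 highest in CPM. Genes and lists were chosen with earlier results of these data known.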

Additional observations from a re-analysis of the deposited data

How the results depend on the processing

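Of the signalling genes, 0 were called under all 12 alternatives of the fit, and likewise 0 of the other pathway genes. Ins1 and Ins2 had an adjusted p under 0.05 in each (the highest was 0.0443, for Ins2 with a filter at a mean of 5 CPM), with log2 fold changes between -6.69 and -6.33 and between -4.10 and -3.67 without 1 library. The count of all genes called was 2 in every alternative except the replicate block, where it was 9 (2 higher and 7 lower). The labels do not say that a replicate number marks a shared animal, but deviations of same-numbered libraries from their group means correlated at 0.845 over 11595 genes. With the replicate block, 2 signalling genes had an unadjusted edgeR p under 0.05 (Tsc2 and Mtor, lowest adjusted p = 0.999). Intervals of this fit lay within 1.5-fold for 24 of the 24 genes at 20 CPM or more and 2 of 6 at lower levels (Igf1 and Igfbp4). These intervals rest largely on scatter borrowed from other genes. Without insulin-depleted replicate 2, 2 signalling genes also had an unadjusted p under 0.05 (Igfbp4 and Insl6, adjusted p = 1.0). Sign changes among the 30 tested genes numbered 1 to 7 under other settings, and 3 to 21 without 1 library, where the lone library of a group is assumed to vary like the other group. Without 1 library, Igfbp4 lay between -0.69 and 0.0097 (log2 fold change). With the longest transcript as length, 9 of the 10 highest genes per kilobase were the same. At 0 counts, levels of up to 0.156 CPM in insulin-depleted replicate 1, the shallowest library, would not be seen. That limit would be higher if a read pair adds 2 counts.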
